A study of Homo sapiens with 11 samples.

Results

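The 10 genes described here carry iron into cells, sense it, release it from ferritin and export it. They are SLC40A1, CP and HEPH (export), TFRC, TF, STEAP3 and SLC11A2 (uptake), and IREB2, ACO1 and NCOA4 (sensing and ferritin turnover). All probes of these genes were taken through the RefSeq accession of each probe, which gave 14 probes of the 20249 genes and 42405 probes on the array. The genes were chosen from the log2 signals of these same arrays, so their levels, differences and counts are given as a description, without p-values. Where members are counted against the rule used for all genes, which includes an adjusted p, that count is a description too and supports nothing.

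RNA came from stable transfectants of A549 and HCC827, established human lung adenocarcinoma (LADC) cell lines, and was hybridised to Agilent arrays in 1 colour. TRIM58-WT cells carried a retrovirus with the FLAG-tagged coding sequence of wild-type TRIM58, an E3 ubiquitin ligase, and mock cells carried the empty retroviral vector. Cells of all 4 groups had been infected and selected with G418. The methods describe isolated clones, whereas HCC827 transfectants of the study's growth assay are called crude, and the labels do not say which the arrays hold, so a difference between groups may also be one between clones. The study asked what restored TRIM58 changes in LADC cells. There were 4 A549 mock arrays, of which 1-1 and 1-2 came from the same control cell and were averaged to give 3 replicates, 3 A549 TRIM58-WT arrays, and 2 arrays in each HCC827 group. The labels do not say that the replicates were grown separately, so their spread may be technical.

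Iron enters most cells as transferrin bound to its receptor. In the endosome it is reduced by STEAP3 and passed to the cytosol by SLC11A2, excess iron is stored in ferritin, from which NCOA4 recruits it for release, and ferroportin, encoded by SLC40A1, is the known cellular iron exporter. When iron is scarce, the iron regulatory proteins IRP1 (ACO1) and IRP2 (IREB2) bind elements in the untranslated ends of messenger RNAs, where they stabilise the TFRC message and block translation of ferritin and ferroportin.

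Levels are log2 of the background-subtracted signal of a probe minus the 75th percentile of its array, so 0 means the signal of that percentile and a difference of 1 means 2-fold. Levels of different probes cannot be compared with each other. A probe is called above background where the scanner software marked it as well above background. Of the 10 genes, 6 were above background on all 11 arrays, 2 (SLC40A1 and CP) on some and 2 (TF and HEPH) on none. The A549 array labelled mock 3 stood apart, and so did TRIM58-WT 1. The TRIM58 probe was above background on mock 3 only, 1 of 6 mock arrays, and on 0 of 5 TRIM58-WT arrays. Whether this probe reads the transfected coding sequence is not given in the sources used here, so it does not check the labels. Over the 16921 probes of the A549 fit, mock 3 differed from mock replicates 1 and 2 with an SD of 0.69 and 0.82 (log2), and from TRIM58-WT 2 and 3 with 0.77 and 0.77. Whether mock 3 is mislabelled was not tested, and its label was kept. TRIM58-WT 1 differed from TRIM58-WT 2 and 3 with 0.82 and 0.79, and these from each other with 0.24. Mock 3 and TRIM58-WT 2 and 3 also had 75th percentiles of 56.6 to 62.5 signal units, against 90.5 to 125 on the other arrays, and their part in the results was not tested. Of 5 epithelial markers, 5 were above background on every array of A549 mock and of both HCC827 groups, and 3 on every A549 TRIM58-WT array, where KRT19 was above background on none. Their summed signal, relative to the 75th percentile, was 1020 to 1310 in A549 mock, 551 to 661 in A549 TRIM58-WT, 871 to 872 in HCC827 mock and 1030 to 1170 in HCC827 TRIM58-WT, and its part in the A549 differences was not tested. Bulk RNA cannot tell a lower level in every cell from fewer expressing cells.

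The bases before the annotated start are shown for SLC40A1, TFRC and ACO1, the genes on which the differences described here mostly turn. RefSeq sequence (GRCh38.p14) was matched for 9 of the 10 genes, not CP. The upstream 250 bases were searched on both strands for TGACNNNGC, the core of the antioxidant response element, ACGTG, the core of the hypoxia response element, and CACGTG, the E-box, which contains ACGTG. Capitals mark a match.
SLC40A1 (chr2:189580787-189581036, minus strand): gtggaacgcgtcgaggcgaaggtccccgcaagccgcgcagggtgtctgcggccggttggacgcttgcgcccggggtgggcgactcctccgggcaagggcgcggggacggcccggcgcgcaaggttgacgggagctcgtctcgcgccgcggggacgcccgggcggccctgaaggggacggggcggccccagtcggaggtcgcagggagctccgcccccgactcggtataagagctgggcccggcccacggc
TFRC (chr3:196082091-196082340, minus strand): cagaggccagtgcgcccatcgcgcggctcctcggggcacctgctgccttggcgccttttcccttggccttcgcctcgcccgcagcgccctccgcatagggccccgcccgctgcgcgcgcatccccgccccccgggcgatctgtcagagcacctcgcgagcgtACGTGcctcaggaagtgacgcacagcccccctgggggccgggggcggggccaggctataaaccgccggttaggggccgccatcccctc
ACO1 (chr9:32384393-32384642, plus strand): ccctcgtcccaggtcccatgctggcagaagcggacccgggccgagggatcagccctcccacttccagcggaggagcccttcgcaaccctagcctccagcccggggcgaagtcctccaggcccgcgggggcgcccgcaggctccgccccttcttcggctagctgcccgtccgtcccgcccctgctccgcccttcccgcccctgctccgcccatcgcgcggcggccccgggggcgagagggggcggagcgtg
The window of TFRC held 1 match, ACGTG on the plus strand of the gene at 88 to 84 bases before the start, and the windows of SLC40A1 and ACO1 held none. Among 35116 upstream windows of this length in the table, 18.5% held ACGTG, 10.9% TGACNNNGC and 6.34% CACGTG. A match describes letters in the window and is not a binding site.

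SLC40A1, the exporter, was above background on both HCC827 mock arrays and on neither HCC827 TRIM58-WT array. Its probe (A_23_P102391, gene on chromosome 2) read -1.86 and -1.87 on the HCC827 mock arrays and -5.15 and -5.32 on the HCC827 TRIM58-WT arrays. The HCC827 groups did not overlap, and TRIM58-WT was at least 2.83-fold lower, against the lowest signals that were above background on those arrays. In A549 the mock arrays 1-1, 1-2 and 2 read -2.38, -2.23 and -2.55, and mock 3 read -4.16, not above background. The A549 TRIM58-WT arrays read -0.44, -3.00 and -2.89, with only the first above background. Replicate 1 thus lay above, and replicates 2 and 3 inside, the range of the A549 mock arrays. The mean was -3.00 ± 1.01 (SD, n = 3) in A549 mock and -2.11 ± 1.44 (SD, n = 3) in TRIM58-WT, a difference of 0.89 that was smaller than the pooled SD of 1.24. Without mock 3 the difference was 0.32. It was 2.02 between the arrays of slide 1 and 0.25 between those of slide 2. For every gene, slide 1 held 1 A549 TRIM58-WT array, replicate 1, and 2 A549 mock arrays, and slide 2 held 2 of each. Mock 1-1 and 1-2, from the same control cell, lay on different slides, so the slides are not independent. From high to low the group means were HCC827 mock, A549 TRIM58-WT, A549 mock and HCC827 TRIM58-WT, and of the neighbours in this order only the last pair did not overlap.

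**Figure D1:**
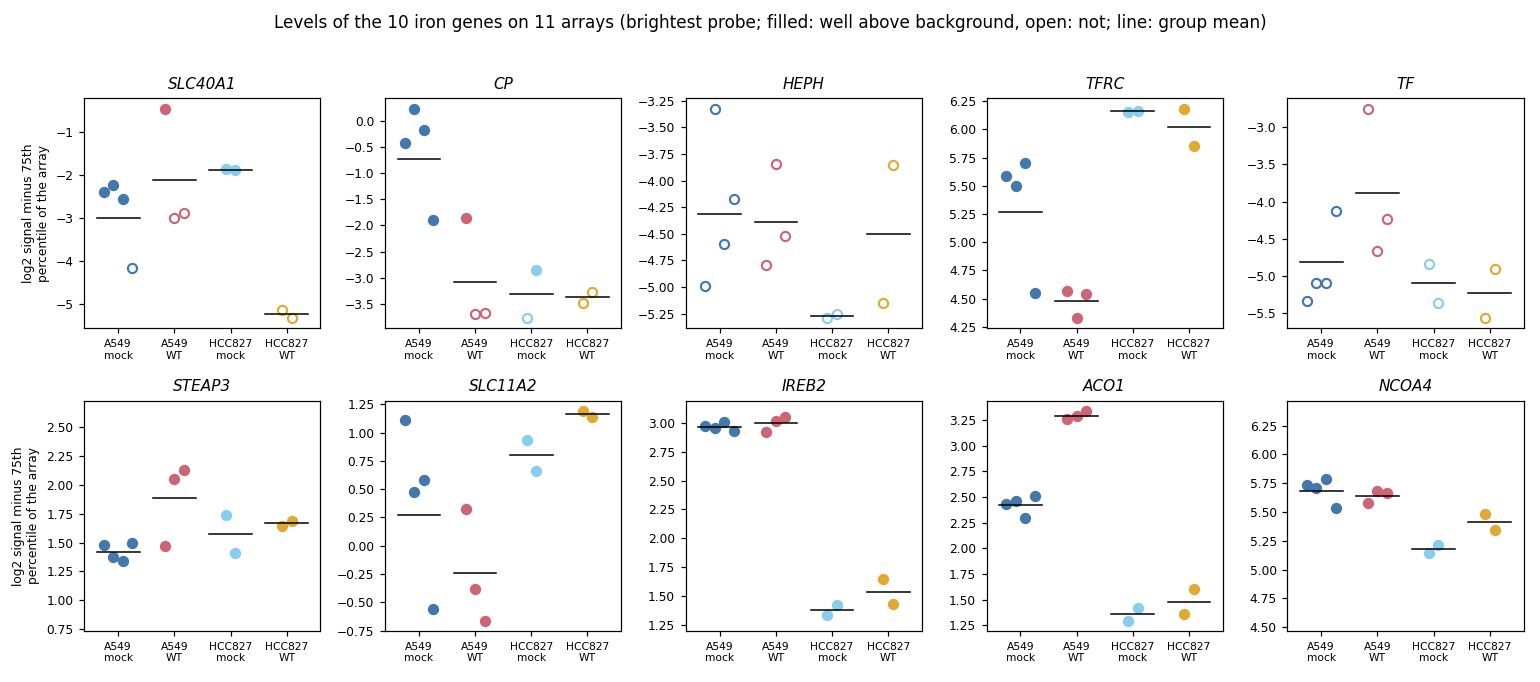
Levels of the 10 genes on each array (log2 signal minus the array's 75th percentile, brightest probe, with the vertical scale set per gene), filled where the probe was above background and open where not, with the mean of replicates as a line. SLC40A1 was not above background on either HCC827 TRIM58-WT array (-5.15 and -5.32), ACO1 was higher on the 3 A549 TRIM58-WT arrays (3.26 to 3.34) than on the 4 A549 mock arrays (2.29 to 2.51), and TF and HEPH were above background on no array.

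CP encodes ceruloplasmin, a copper ferroxidase that oxidises exported iron so that transferrin can bind it. It was seen mainly in A549 mock cells. Its brighter probe (A_33_P3296587, gene on chromosome 3) read -0.42, 0.24 and -0.16 on A549 mock arrays 1-1, 1-2 and 2 and -1.90 on mock 3. The A549 TRIM58-WT arrays read -1.86, -3.70 and -3.68, only the first above background. The A549 groups overlapped by mock 3 and TRIM58-WT 1 alone, and the difference was -2.36 (SE 0.69), or -2.96 without mock 3. The other CP probe was above background on A549 mock 1-1, 1-2 and 2 only, differed by -2.33 and did not overlap between the A549 groups. Within slides the brighter probe differed by -1.57 and -2.86, and with normexp background correction, which adds an offset of 50 to each signal, by -0.69. In HCC827 that probe read -3.78 and -2.86 in mock, the second above background, and -3.49 and -3.28 in TRIM58-WT, neither above background. CP levels of A549 TRIM58-WT and of both HCC827 groups overlapped. Plasma ceruloplasmin is made mostly by hepatocytes. Of 6 hepatocyte markers, 3, among them ALB, were above background on no A549 mock array and 5 on no A549 TRIM58-WT array, with summed signals of 0.627 to 0.92 and 0.502 to 0.589 relative to the 75th percentile. AHSG was above background on 3 A549 mock and 0 TRIM58-WT arrays, APOA1 on 2 and 0, and SERPINA1 on 2 and 1. In HCC827 the summed signals were 2.08 to 2.26 (mock) and 3.86 to 5.44 (TRIM58-WT), where only SERPINA1 was above background. HEPH, the membrane-bound ferroxidase, read -5.29 to -3.32 and was above background nowhere, so no direction is given for it.

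TFRC, the transferrin receptor, was lower in A549 TRIM58-WT cells than on 3 of the 4 A549 mock arrays. Its probe (A_23_P212617, chromosome 3) read 5.59, 5.50 and 5.71 on A549 mock 1-1, 1-2 and 2, and 4.55 on mock 3. The A549 TRIM58-WT arrays read 4.56, 4.33 and 4.54. Mock 3 therefore lay within the TRIM58-WT range, the groups overlapped through it alone, and the means of 5.27 ± 0.62 (SD, n = 3) and 4.48 ± 0.13 (SD, n = 3) differed by -0.79 (SE 0.32). Without mock 3 the difference was -1.15, more than 2-fold. It was -1.08 between arrays of slide 1 and -0.59 between arrays of slide 2. HCC827 cells read 6.16 and 6.16 (mock) and 6.19 and 5.85 (TRIM58-WT), which overlapped, and both HCC827 groups lay above every A549 array.

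TF encodes transferrin, the plasma iron carrier that the receptor binds. Its probe read -5.56 to -2.75, and was above background on no array. STEAP3, the endosomal ferrireductase, read 1.48, 1.38, 1.34 and 1.499 on A549 mock 1-1, 1-2, 2 and 3. The A549 TRIM58-WT arrays read 1.47, 2.06 and 2.13, so replicate 1 lay among the mock arrays and replicates 2 and 3 above them. The A549 difference was 0.46 (SE 0.22), and with each array centred on its median it was 0.09. HCC827 read 1.74 and 1.41 (mock) and 1.65 and 1.69 (TRIM58-WT), which overlapped. SLC11A2 encodes DMT1, which moves ferrous iron out of the endosome. Its brighter probe (A_23_P139820, chromosome 12) read 1.11, 0.48, 0.58 and -0.56 on A549 mock 1-1, 1-2, 2 and 3, and 0.33, -0.38 and -0.66 on A549 TRIM58-WT. As with TFRC, mock 3 lay at the level of TRIM58-WT. The difference was -0.51 (SE 0.43), and -0.93 without mock 3. In HCC827 the same probe read 0.94 and 0.67 (mock) and 1.19 and 1.14 (TRIM58-WT), a difference of 0.36 (SE 0.16) with no overlap. The other SLC11A2 probe differed by 0.21 in HCC827 and overlapped.

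ACO1, the cytosolic aconitase that turns into IRP1 when it loses its iron-sulfur cluster, was higher in A549 TRIM58-WT cells. Its probe (A_23_P9415, chromosome 9) read 2.43, 2.47, 2.29 and 2.51 on A549 mock 1-1, 1-2, 2 and 3, and 3.26, 3.29 and 3.34 on A549 TRIM58-WT. Mock 3 was here at the level of the other mock arrays, and the groups did not overlap. The means of 2.42 ± 0.11 (SD, n = 3) and 3.29 ± 0.04 (SD, n = 3) differed by 0.88 (SE 0.15), 1.84-fold. The difference was 0.90 between arrays of slide 1, with 1 TRIM58-WT array, and 0.82 between arrays of slide 2. These are not independent, since mock 1-1 and 1-2 lay on different slides. With each array centred on its median it was 0.51, and that centring moved the median of all genes tested from 0.03 to -0.34. The HCC827 arrays read 1.297 and 1.42 (mock) and 1.36 and 1.61 (TRIM58-WT), which overlapped, and lay below every A549 array.

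IREB2, which encodes IRP2, did not follow ACO1 in A549. Its probe (A_33_P3221528, chromosome 15) read 2.98, 2.96, 3.01 and 2.93 on A549 mock 1-1, 1-2, 2 and 3, and 2.92, 3.02 and 3.05 on A549 TRIM58-WT. The A549 groups overlapped, with a difference of 0.03 (SE 0.14) at this scaling and -0.34 with each array centred on its median. HCC827 read 1.34 and 1.42 (mock) and 1.64 and 1.43 (TRIM58-WT), a separation of less than the spread within either group. NCOA4, the receptor that takes ferritin to the lysosome, varied little within each line. Its brighter probe (A_33_P3270034, chromosome 10) read 5.74, 5.71, 5.79 and 5.54 on A549 mock 1-1, 1-2, 2 and 3, 5.58, 5.68 and 5.67 on A549 TRIM58-WT, and 5.15 and 5.21 in HCC827 mock. The HCC827 TRIM58-WT arrays read 5.48 and 5.34, above both mock arrays by 0.23 (SE 0.13) on average, and the other NCOA4 probe differed by 0.22, also without overlap.

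Against the rule used for all genes (limma, Benjamini-Hochberg adjusted p under 0.05 and at least 2-fold), 0 of 7 members in the fit met it for A549 TRIM58-WT against mock, where 7.93% of the genes tested met it and 4.05% did so as lower in TRIM58-WT. ACO1 was the only one of the 7 whose A549 replicates did not overlap, against 33.9% of all genes tested. The median difference was -0.04 over the 7 and 0.03 over all genes. Without mock 3, CP and TFRC met the rule, both lower, and without TRIM58-WT 1, CP did. CP entered these fits only through the mock arrays, where it is higher, so nothing is read from its meeting the rule. In HCC827, 1 of 7 met it, SLC40A1, where 1.07% of genes did and 0.74% as lower. Its probe entered that fit only through the mock arrays, where it is higher, so nothing is read from this count. Replicates did not overlap for SLC40A1, SLC11A2, IREB2 and NCOA4, 4 of 7, against 59.2% of all genes, a share that 2 against 2 arrays reach easily. Without either HCC827 mock replicate SLC40A1 no longer met the rule, at differences of -3.36 and -3.37. With normexp background correction its difference was -0.52.

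Both genes of iron regulatory proteins read higher in A549 mock than in HCC827 mock cells. Of 8 members in the fit of A549 mock against HCC827 mock, 3 met the rule, all higher in A549, where 31.9% of genes did and 15.5% as higher in A549. These were CP by 2.60 (SE 0.65), IREB2 by 1.59 (SE 0.15) and ACO1 by 1.06 (SE 0.16), with CP above background on 1 of 2 HCC827 mock arrays. CP thus entered the fit only through A549 mock, where it is higher, so nothing is read from its meeting the rule. With normexp the 3 differences were 1.07, 1.27 and 0.77, and ACO1 then did not meet the rule, nor did CP by the test the study's methods name, and with probes above background on every array CP was not in the fit. TFRC differed by -0.89 (SE 0.38) with A549 mock lower, and by -0.54 without mock 3. Replicates of both mock groups did not overlap for 6 of the 8, against 72.1% of genes. Without A549 mock replicate 1 or 2 CP did not meet the rule, at 2.29 and 2.32, and without HCC827 mock replicate 1 or 2 neither CP (2.15 and 3.06) nor ACO1 (1.00 and 1.12) did. SLC40A1 differed by -1.14 (SE 0.58), and by -0.56 without mock 3. The probes of STEAP3 disagreed, with differences of -0.15 for the brighter and -1.63 for the dimmer. Those of NCOA4 differed by 0.50 (brighter) and 0.97 (dimmer), both without overlap.

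**Figure D2:**
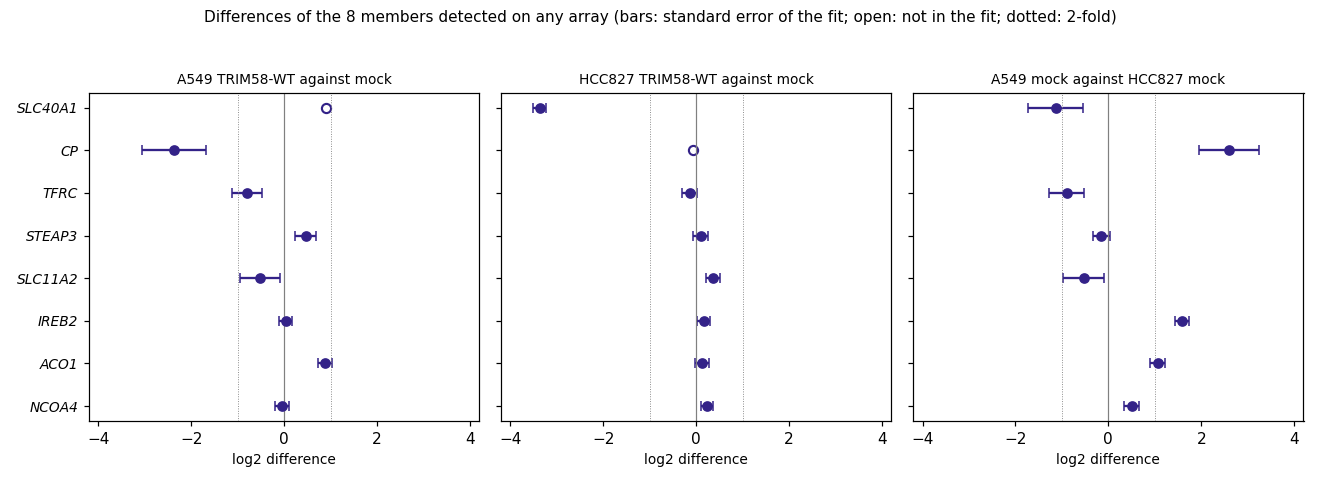
Log2 differences of the 8 genes detected on any array in the 3 comparisons (horizontal axis, brightest probe), with the standard error of the limma fit as a bar, open points where the probe was not in the fit, and dotted lines at 2-fold. CP, IREB2 and ACO1 between the mock groups (2.60, 1.59 and 1.06) lay beyond a dotted line. The point of SLC40A1 in HCC827 (-3.37) is set against a probe not above background, where the lower bound used was 2.83-fold, and CP in A549 (-2.36) and SLC40A1 between the mock groups (-1.14) lay beyond a dotted line without meeting the rule.

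The genes whose levels ran most like those of SLC40A1 over the 10 replicates, out of 12810, were LRIG1, DNAJC12 and ZNF572, with root mean square differences of 0.45, 0.75 and 0.79 (log2) after each gene was centred. SLC40A1 itself had an SD of 1.53 over the replicates. For TFRC, with an SD of 0.77, they were TASP1, SNHG15 and ERCC6 at 0.15, 0.16 and 0.17. None of the 6 is another of the 10 genes.

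Outside the 10 genes, 44 further genes of iron and heme handling were listed, of which SCARA5, SLC39A8, STEAP1, BMP6, ABCG2 and HMOX1 were lower in A549 TRIM58-WT. The list was made with earlier results of these data known, so its counts and adjusted p-values are a description and support nothing. Of 33 in the A549 fit, 6 were lower and 0 higher, where 7.93% of all genes passed and 4.05% were lower, and the median difference was -0.09 against 0.03 over all genes. SCARA5, BMP6 and ABCG2 entered this fit only through the mock arrays, where they are higher, so nothing is read from their passing or their adjusted p. With probes above background on every array, only SLC39A8, STEAP1 and HMOX1 passed. Other uptake genes gave 3 of 8, namely SCARA5, a ferritin receptor (at least 6.26-fold lower, adjusted p = 0.0239 by limma with Benjamini-Hochberg adjustment), SLC39A8, a metal importer (-1.71, SE 0.33, adjusted p = 0.0296), and STEAP1, a STEAP family protein (-1.60, SE 0.26, adjusted p = 0.0167). The hepcidin axis gave BMP6, an inducer of hepcidin (adjusted p = 0.0159), which read 2.62, 2.59, 2.59 and 0.05 on A549 mock 1-1, 1-2, 2 and 3 and -2.38 on the only TRIM58-WT array, 1 of 3, with its probe above background. The size of its difference, fitted as -5.29, was therefore not measured on the other two. The heme group gave ABCG2, a heme and porphyrin exporter (at least 3.12-fold lower, adjusted p = 0.00999), and HMOX1, the heme oxygenase that frees iron from heme (-1.21, SE 0.26, adjusted p = 0.0402). With normexp the dim genes ABCG2 (-0.48), SCARA5 (-1.06) and BMP6 (-2.34) did not pass, with adjusted p = 0.0781, 0.0536 and 0.0531 in limma. Storage genes and mitochondrial genes gave 0 of 4 and 0 of 10. The ferritin chains FTH1 and FTL differed by 0.21 (SE 0.38) and 0.19 (SE 0.28), and by -0.15 and -0.18 with each array centred on its median. FBXL5, which marks IRP2 for degradation when iron is plentiful, had 0.61 (SE 0.14, adjusted p = 0.0493), under 2-fold, and 0.24 (adjusted p = 0.799) with median centring, and its limma adjusted p was 0.0625 with quantile normalization, 0.12 with normexp, 0.0522 with probes above background on every array and 0.244 without a filter. HAMP, hepcidin itself, was above background on no array. Without mock 1 or TRIM58-WT 3 the count was 0, without mock 2 or TRIM58-WT 2 it was 1 (ABCG2), and without mock 3 or TRIM58-WT 1 it was 5, and by the test that the study's methods name, with the same adjustment, it was 0.

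In HCC827, 0 of 29 of these genes passed, where 1.07% of all genes did, and 9 had an unadjusted p under 0.05 in limma, as did 2647 of all 12165 genes. STEAP1 was lower there too, by -1.13 (SE 0.235, limma adjusted p = 0.114), without overlap, as were 59.2% of all genes. Its change differed between the lines by -0.47 (SE 0.40, limma adjusted p = 0.583). Of the other genes lower in A549, SLC39A8 (0.03) and HMOX1 (-0.11) overlapped in HCC827. SCARA5, BMP6 and ABCG2 were not in the HCC827 fit. Between the mock groups 16 of 34 passed, 15 higher in A549 and 1 lower, where 31.9% of all genes passed and 15.5% were higher in A549. The largest were BMP6 (at least 31.6-fold higher in A549), SCARA5 (at least 9.51-fold), CYBRD1, a ferrireductase (at least 11.9-fold), MELTF, melanotransferrin (at least 15.3-fold higher in HCC827), and FTL (3.75, SE 0.24, adjusted p = 0.000358). BMP6, SCARA5, CYBRD1 and MELTF, and also HFE and ABCG2, entered that fit only through the group where they are higher, so nothing is read from their passing. With probes above background on every array these were not in the fit, and FTL passed. Only the brightest probe of each further gene is given. FTL and FTH1 have 3 probes each, and STEAP1, SLC39A8, CYBRD1 and MELTF have 2 each. In the test of whether the TRIM58-WT difference itself differs between the lines, 1 of 34 passed, BLVRA, a biliverdin reductase, where 4.6% of all genes did. Its difference was 0.08 in A549 and 1.102 in HCC827, which gave -1.02 (SE 0.21, adjusted p = 0.0359). Of the replicates left out in turn, it passed without A549 mock 3 (-1.001) or TRIM58-WT 1 (-1.04) and in no other case.

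**Figure D3:**
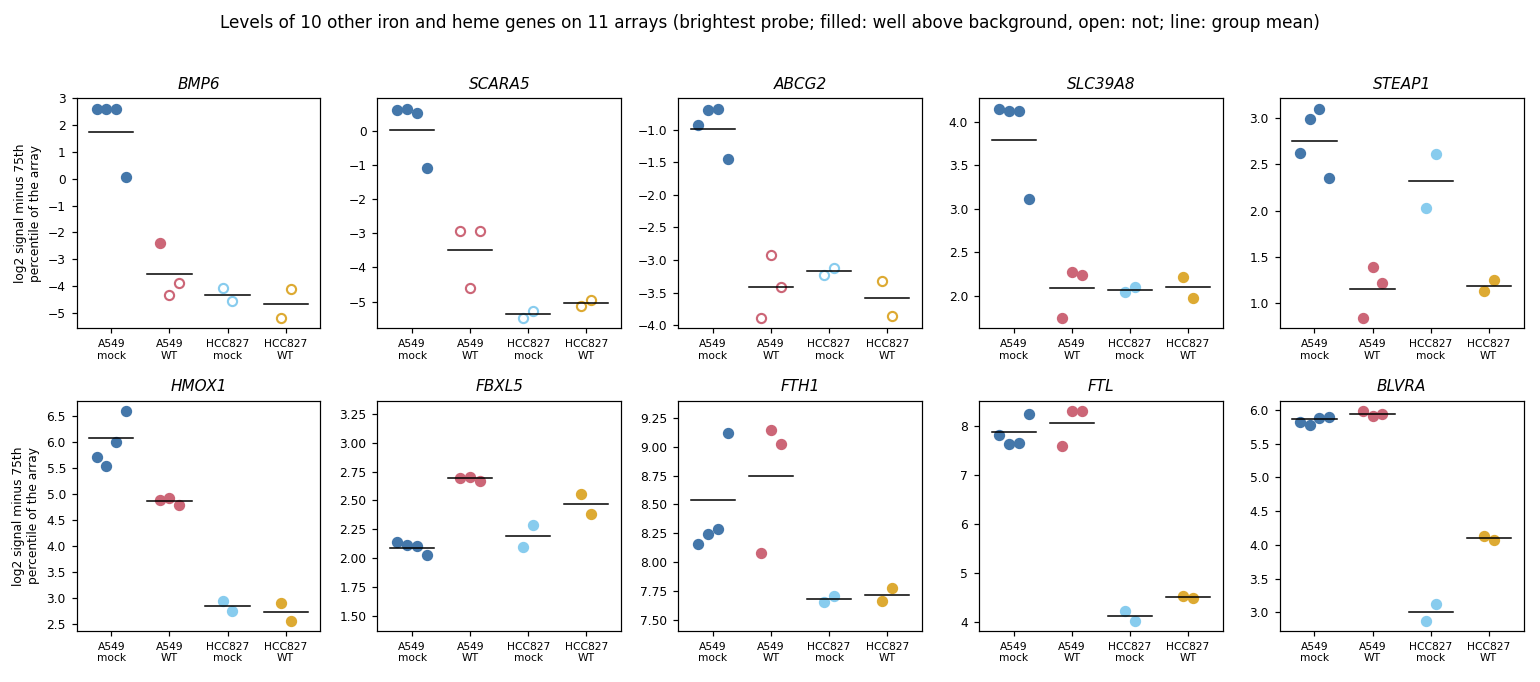
Levels of 10 other iron and heme genes on each array (log2 signal minus the array's 75th percentile, brightest probe, with the vertical scale set per gene), filled where above background, with the mean of replicates as a line. BMP6, SCARA5, ABCG2, SLC39A8, STEAP1 and HMOX1 were lower in A549 TRIM58-WT than on the A549 mock arrays without overlap, while FTH1 and FTL overlapped.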

How the data were processed

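RNA was measured on 11 Agilent arrays in 1 colour on 2 slides. The authors extracted the deposited intensity values with Agilent Feature Extraction (11.5.1.1 per the file headers, 10.7 per the labels), which subtracted background. The log2 table that the authors deposited was used as an alternative. With R 4.3.3 and limma 3.58.1, outlier and control spots were left out, spots of a probe were averaged, and log2 signals minus the 75th percentile of each array were computed. A probe entered the limma test (lmFit, eBayes) if all arrays of 1 of the groups in the comparison had it above background (16921 probes in A549, 19542 in HCC827), after a test on simulated data. Of 42405 probes, 27241 were named through RefSeq, and a gene was counted by its brightest probe over the 10 replicates. Fold bounds used the lowest signal above background on each array. The members, the 44 further genes and the markers were chosen with earlier results of these data known. Named are all 10 members, further genes called for TRIM58-WT or between lines, FTH1, FTL, HAMP, HMOX1 and FBXL5, and the 5 largest mock differences. Alternatives changed the scaling, background, filter, replicates, blocks and test. Figures used Python 3.11.15 and matplotlib 3.10.9. The number of arrays limits the precision.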

Additional observations from a re-analysis of the deposited data

Results flagged for a closer look

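BLVRA, which reduces biliverdin, was picked out because its TRIM58-WT difference differed between the lines by -1.02 on the log2 scale (A549 minus HCC827, SE 0.21, limma adjusted p = 0.0359). It was 0.08 in A549 (n = 3 against 3) and 1.102 in HCC827 (n = 2 against 2), with both HCC827 TRIM58-WT arrays above both mock arrays, and of the replicates left out in turn it passed only without A549 mock 3 or A549 TRIM58-WT 1, at -1.001 and -1.04. It did not pass with quantile normalization (-1.06) or median centring (-1.42), without a filter on dim probes (-1.02) or with the replicate number as a block (-1.02).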

How the results depend on the processing

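Counts of A549 members meeting the rule were 1 (CP) with median centring, mock 1-1 and 1-2 as 2 replicates, the slide as a block together with that split, all 4 groups in 1 fit or the replicate number as a block, against 0, and 0 to 2 with replicates left out. CP was in these fits only through the mock arrays, where it is higher, so nothing is read from its meeting the rule. The A549 count of further genes was 3 with normexp, 2 without a filter on dim probes, 3 with probes above background on every array, 0 by Welch's t-test and 0 to 5 with replicates left out. Directions reversed with median centring for BLVRA (-0.28), FTH1 (-0.15), FTL (-0.18) and CYBRD1 (-0.20), with normexp for BLVRA (-0.066), and for CYBRD1 with replicates left out (-0.22 to 0.37); none of these had passed in A549. In HCC827, SLC40A1 did not meet the rule (0 members) with normexp, no filter, the every-array filter (where it was not tested), the replicate block, the t-test or all 4 groups in 1 fit, and 0 to 1 members did with replicates left out. The HCC827 count of further genes was 1 (BLVRA) with median centring, the every-array filter or all groups in 1 fit. Between mock groups it was 10 with normexp, 10 with the every-array filter, 5 by the t-test and 10 to 15 with replicates left out, and 1 to 3 members met the rule with replicates left out. The count for the difference between lines was 2 with quantile normalization, median centring or normexp, 0 without a filter or with the replicate block, 5 with mock 1-1 and 1-2 as 2 replicates, 6 with the slide block added to that split and 0 to 6 with replicates left out. Same-numbered replicates were not paired, with correlations of deviations of 0.50, -0.42 and 0.50 in A549 and 0.08 in HCC827. Among called genes the share of higher ones in A549 went from 48.9% to 24.6% with median centring, and in HCC827 from 30.8% to 43.3%. Near background, differences depend on the background correction: with normexp CP in A549 was -0.69 and SLC40A1 in HCC827 -0.52. The causes of these shifts were not tested. Since mock 1-1 and 1-2 lay on different slides, the slide block was run only with them split. It could not be fitted for HCC827, whose arrays shared 1 slide, and with a replicate left out there the lone array was assumed to vary like the other group.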
